A study of Homo sapiens with 6 samples.

Results

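Homologous recombination copies an intact DNA molecule to repair a broken one, and the Fanconi anemia pathway unhooks crosslinks between the DNA strands and hands the resulting breaks to recombination. The 37 genes described here act in these 2 pathways. They were taken by gene name from a table of 14034 genes, and all 37 listed genes were present. Messenger RNA was counted in JHH-4, an established line of human hepatocellular carcinoma (HCC) with a wild-type genotype label, in 3 libraries of cells that overexpressed hsa-miR-885-5p from a plasmid carrying the primary microRNA and in 3 Control libraries. The labels do not say whether Control cells carried a plasmid, so plasmid and microRNA cannot be told apart. The study's title names cell cycle progression as its subject. The submitters describe the libraries as technical replicates, so p-values measure only the spread between such libraries.

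In recombination, nucleases first trim the broken ends to single strands. BRCA1 and BRCA2, with their partners, then prepare these strands for strand exchange, a group of paralogous proteins and translocases assist the search for and invasion of the intact copy, and helicases and resolvases take the joined molecules apart. In the Fanconi pathway, a core ubiquitin ligase and its E2 enzyme mark the FANCD2-FANCI clamp, which draws nucleases to the crosslink. Transcripts of many of these genes are known to peak as cells copy their DNA. In liver cancer cells, as in other dividing cells, these pathways protect replication forks.

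Total counts ran from 46382314 to 56409821 in the miR-885-5p libraries and from 48327113 to 49694754 in the Control libraries. The smallest count of any of the 37 genes in a library was 167. Chi-square over degrees of freedom, which is near 1 for sampling noise alone, was 7.95 to 40.5 for library pairs of the same group and 96.0 to 136 for pairs of different groups. Of 11 markers of liver and epithelial tumour cells, 4 were rows of the table (SERPINA1, KRT8, KRT18 and KRT19). FPKM is a level scaled by gene length and library size. The summed FPKM of the 4 was from 1608 to 1686 in miR-885-5p libraries and from 1824 to 1940 in Control libraries. Nearly all of it was keratins, and SERPINA1 had 4.06 FPKM in miR-885-5p cells and 4.26 FPKM in Control cells. The defining hepatocyte markers ALB, AFP and HNF4A were not rows, nor were APOA1, APOB, TTR and EPCAM. Of 5 markers of immune, endothelial and stromal cells, 3 were rows (CD14, PECAM1 and COL1A1), with a summed FPKM from 1.45 to 1.86 in miR-885-5p libraries and from 1.32 to 1.61 in Control libraries, and PTPRC and DCN were not rows. Within that sum, CD14 had 0.389 FPKM in miR-885-5p cells and 0.666 FPKM in Control cells. PECAM1 went the other way, with 0.223 FPKM in miR-885-5p cells and 0.0933 FPKM in Control cells. The part of any such cells in the results was not tested.

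Most of the recombination and Fanconi genes were lower in miR-885-5p cells. Of the 37 genes, 25 fell and 2 rose at an adjusted p under 0.05 (edgeR's quasi-likelihood test, Benjamini-Hochberg adjustment over all 14034 genes), and 10 did not pass. The 25 that fell were 67.6% of the genes, and 26.5% of all genes tested fell. The 2 that rose, ATM and FANCF, were 5.41% of the genes, and 26.3% of all genes rose. The median log2 fold change, miR-885-5p over Control, was -0.42 over the 37 genes, with a range from -1.002 to 0.34, and -0.00061 over all genes. A fall of at least 0.5 on the log2 scale with an adjusted p under 0.05 was found for 14 of the 37 genes and for 8.82% of all genes. In bulk RNA, fewer cells that express a gene and less of its RNA in each cell cannot be told apart.

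Levels within a gene are given below as CPM, counts scaled to a common library size with the TMM method, so that libraries can be compared. Summed over the 37 genes, the level was 1211 ± 5.17 CPM in miR-885-5p cells and 1557 ± 9.82 CPM in Control cells (SD, n = 3 each). In 27 genes every miR-885-5p library lay below every Control library, which was the case for 30.3% of all genes. In 2 genes, ATM and FANCF, every miR-885-5p library lay above, which was the case for 30.2% of all genes, and in 8 the groups overlapped. FANCE and RMI2 were below Control in every library without passing the test. For RMI2 the groups nearly touched, with 23.13 CPM in miR-885-5p library 3 and 23.14 CPM in Control library 3.

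**Figure D1:**
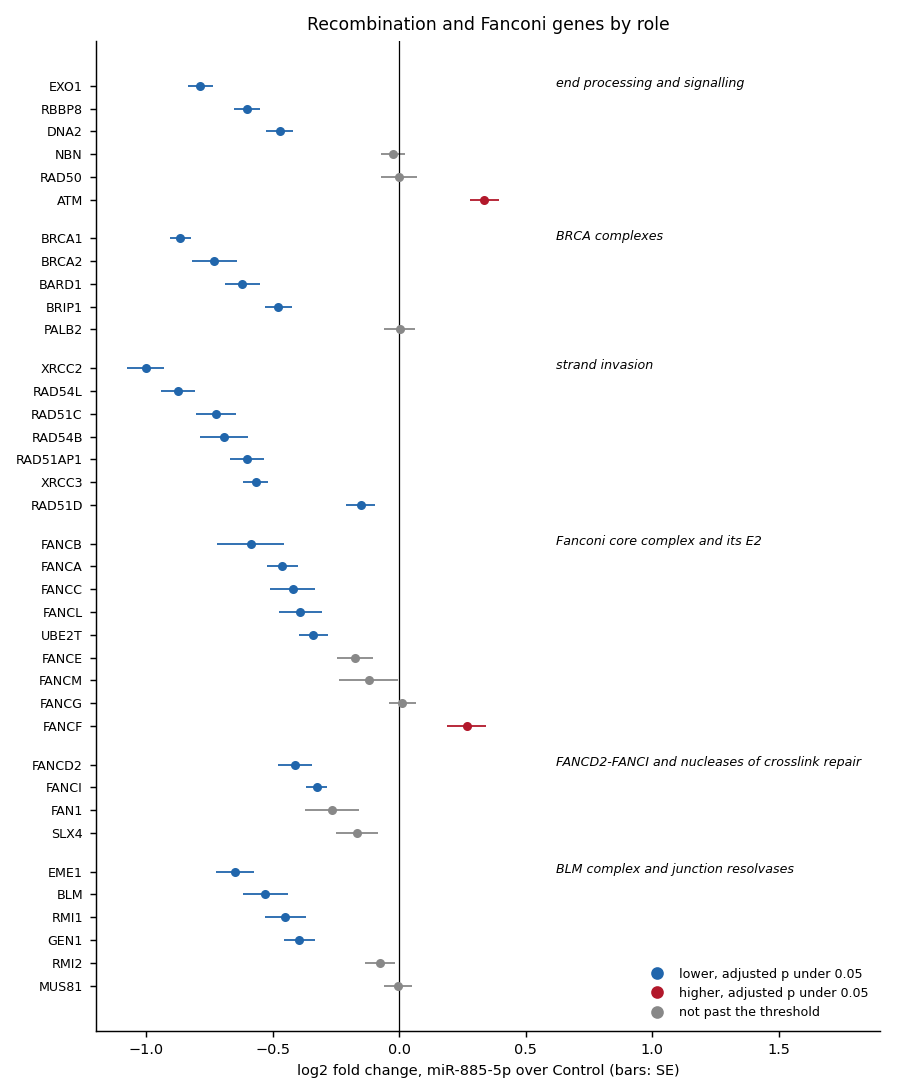
Log2 fold change (miR-885-5p over Control) of each of the 37 genes, ordered by role, with bars for the standard error of the edgeR fit (3 libraries per group); blue is lower and red higher at an adjusted p under 0.05, grey did not pass. XRCC2 lies furthest to the left at -1.002 and ATM furthest to the right at 0.34.

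**Figure D2:**
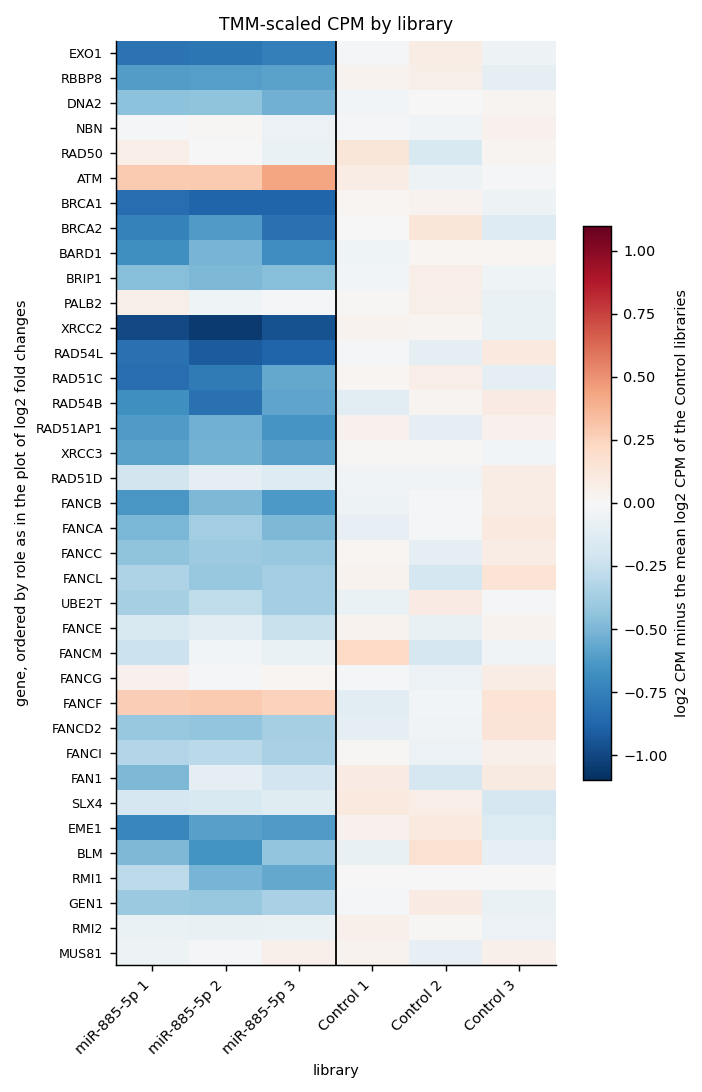
Log2 CPM of each gene in each library minus the mean of the 3 Control libraries; blue is lower and red higher, columns are the 3 miR-885-5p and then the 3 Control libraries, and genes are ordered by role. The 3 miR-885-5p columns are blue for most genes and red for ATM and FANCF.

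The genes lie on 18 chromosomes, and 4 of the genes that fell are shown by their promoters, because these hold a motif bound by E2F factors, which switch on genes of DNA replication and repair as cells enter S phase. Of 32 genes with a promoter in RefSeq (250 bases before to 50 after the start, GRCh38.p14), 5 held TTTGGCGC, TTTCCCGC, TTTGGCGG or TTTCGCGC on either strand. Each promoter was counted once, whatever the number or overlap of its matches. The 5 were EXO1, XRCC2, FANCC, FANCD2 and GEN1, which is 15.6% of the 32, and the same motifs were in 5.52% of the promoters of 9882 genes of the table and in 3.35% of all 35116 promoters. All 5 fell, as did 17 of the 27 genes with a promoter and no match. The median log2 fold change was -0.42 with a match and -0.45 without. Only the 4 exact forms were searched, so a promoter with no match can hold a near form. Some read as TTTCCCGC on the other strand in all but its first base. Among them are those of RAD51AP1, BLM and BRIP1, which fell, and of FANCE, which did not pass. A link between the motif and the fall was not tested. Over the genes of the table, 38% of those with a match fell and 27.7% of those without. The BRCA1 entry, counted among the 27, sits at an outermost annotated start and not at the usual promoter of the gene. CCAAT, the motif of NF-Y, was in 13 of the 32 promoters (40.6%) and in 37.0% of those of the table, and TTTGAA, the cell cycle homology region, in 4 (12.5%) and in 9.79%. From 100 bases before the start to 50 after it, the shares among the 32 genes and the genes of the table were 15.6% and 2.74% for the E2F-type motifs, 34.4% and 24.1% for CCAAT, and 3.12% and 3.79% for TTTGAA, which thus turned round. The sequences below cover this shorter window, read along the gene's strand, with the E2F-type match in capitals.
XRCC2, chr7:152676092-152676241 minus: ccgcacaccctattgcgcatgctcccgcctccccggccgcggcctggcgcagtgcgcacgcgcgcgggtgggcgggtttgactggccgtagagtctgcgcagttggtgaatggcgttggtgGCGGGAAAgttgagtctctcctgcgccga
EXO1, chr1:241848104-241848253 plus: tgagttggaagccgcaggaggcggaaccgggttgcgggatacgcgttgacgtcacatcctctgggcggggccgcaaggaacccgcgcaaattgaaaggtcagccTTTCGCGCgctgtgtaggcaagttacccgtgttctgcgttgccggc
FANCD2, chr3:10026337-10026486 plus: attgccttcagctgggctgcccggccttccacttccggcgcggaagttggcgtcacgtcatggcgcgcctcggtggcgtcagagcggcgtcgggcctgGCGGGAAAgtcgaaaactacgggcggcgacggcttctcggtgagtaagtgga
GEN1, chr2:17753769-17753918 plus: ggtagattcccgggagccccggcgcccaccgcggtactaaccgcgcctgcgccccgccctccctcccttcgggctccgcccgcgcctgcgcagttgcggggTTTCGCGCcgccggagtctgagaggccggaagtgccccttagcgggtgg

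The microRNA itself is shown with its seed, the bases that pair with a target, in capitals. It lies on chromosome 3 (chr3:10394531-10394552 minus, GRCh38.p14), and its gene was not a row of the table.
hsa-miR-885-5p: uCCAUUACacuacccugccucu
The site that pairs with the whole seed is GTAATGG. In 3′ UTRs (the longest per gene, from GENCODE 29), GEN1 alone of the 37 genes held it, and it or its longer form GTAATGGA was in 2.70% of the 37 genes and in 8.01% of the 12308 genes of the table with a UTR. The site in GEN1 lies at chr2:17782591-17782597 plus (GRCh38) and is shown in capitals with 10 bases on each side.
GEN1 site: aatcatgctcGTAATGGctgaataaac
Shorter matches, TAATGGA or TAATGG, were in 5 more of the genes (NBN, FAN1, ATM, RAD51D and FANCD2), so that 16.2% of the 37 and 30.4% of all genes held a match of any kind. The 31 genes with no match had a median log2 fold change of -0.47, and 22 of them fell. The 6 with a match had a median of -0.21, and 3 of them fell. Of all genes tested, 26.5% fell, but their shares with and without a match were not computed. The difference between the 31 and the 6 was not tested.

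Genes of end processing and damage signalling moved in both directions. RBBP8 starts the trimming of broken ends and EXO1 extends it. EXO1 had 46.7, 47.0 and 48.5 CPM in the miR-885-5p libraries, against 80.6, 86.3 and 78.5 CPM in the Control libraries. RBBP8 had 55.4, 55.8 and 56.4 CPM in the miR-885-5p libraries, against 86.8, 88.6 and 79.2 CPM in the Control libraries. Both genes were low in all 3 miR-885-5p libraries, with no overlap between the groups. The log2 fold change was -0.79 (SE 0.05, adjusted p = 1.42e-06, edgeR) for EXO1, whose promoter is shown above, and -0.60 (SE 0.05, adjusted p = 8.78e-06) for RBBP8. DNA2, a nuclease and helicase that trims ends beside EXO1, fell by 0.47 on the log2 scale, with 24.1 ± 0.821 CPM in miR-885-5p cells and 33.5 ± 0.734 CPM in Control cells (SD, n = 3 each).

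ATM, the kinase that signals double-strand breaks, rose. It had 57.4, 57.2 and 63.1 CPM in the miR-885-5p libraries, against 49.6, 45.04 and 46.0 CPM in the Control libraries. All 3 miR-885-5p libraries were high, the third most of all, and the groups did not overlap. The log2 fold change was 0.34 (SE 0.06, adjusted p = 0.000951, edgeR). NBN and RAD50, which with MRE11 form the complex that senses broken ends, had log2 fold changes of -0.03 and -0.00 and did not pass the test. RAD50 had 99.2 ± 4.99 CPM in miR-885-5p cells and 99.3 ± 10.3 CPM in Control cells (SD, n = 3 each).

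Of the 5 genes of the BRCA complexes, 4 fell and the median log2 fold change was -0.62. BRCA1 and BARD1 form a ubiquitin ligase at broken ends. BRCA1 had 78.8, 76.4 and 76.5 CPM in the miR-885-5p libraries, against 142, 144 and 135 CPM in the Control libraries. BARD1 had 15.9, 17.7 and 15.7 CPM in the miR-885-5p libraries, against 24.5, 25.7 and 25.6 CPM in the Control libraries. Every miR-885-5p library was far below every Control library for both genes. BRCA1 fell by 0.86 on the log2 scale (SE 0.04, adjusted p = 2.5e-07, edgeR), the smallest adjusted p of the 37 genes, and BARD1 fell by 0.62 (SE 0.07, adjusted p = 5.06e-05). BRCA1 and FANCD2 have partial pseudogene copies, and the labels do not say how shared reads were counted.

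BRCA2, which acts on the trimmed single-stranded DNA, had 11.8, 12.9 and 11.2 CPM in the miR-885-5p libraries, against 19.9, 21.8 and 18.0 CPM in the Control libraries. The groups did not overlap, and the log2 fold change was -0.73 (SE 0.09, adjusted p = 0.000103, edgeR). PALB2, the scaffold that joins BRCA1 to BRCA2, had 26.1 ± 1.05 CPM in miR-885-5p cells and 26.0 ± 1.24 CPM in Control cells (SD, n = 3 each), and its groups overlapped. BRIP1, a helicase that binds BRCA1, fell by 0.48 on the log2 scale, with 28.9 ± 0.221 CPM in miR-885-5p cells and 40.2 ± 1.79 CPM in Control cells.

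All 7 genes of strand invasion fell, with a median log2 fold change of -0.69. XRCC2, RAD51C and RAD51D belong with RAD51B to a complex of paralogs that assists strand exchange, and RAD51C also pairs with XRCC3. XRCC2 had 9.33, 8.92 and 9.56 CPM in the miR-885-5p libraries, against 19.1, 18.96 and 17.6 CPM in the Control libraries. Its miR-885-5p libraries lay close together and far below Control. XRCC2 fell by 50.1% (log2 fold change -1.002, SE 0.07, adjusted p = 4.02e-06, edgeR), further than any other of the 37 genes, and 2.35% of all genes had a log2 fold change as low. XRCC2 lies on chromosome 7 (chr7:152644779-152676165 minus, GRCh38), and its promoter is shown above.

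RAD51C had 23.8, 24.7 and 28.7 CPM in the miR-885-5p libraries, against 43.1, 44.6 and 39.6 CPM in the Control libraries. XRCC3 had 30.2, 31.7 and 30.1 CPM in the miR-885-5p libraries, against 45.9, 46.0 and 44.5 CPM in the Control libraries. The groups did not overlap in either gene, and the log2 fold change was -0.72 (SE 0.08, adjusted p = 4.77e-05, edgeR) for RAD51C and -0.57 (SE 0.05, adjusted p = 1.31e-05) for XRCC3. Of the exon bases of XRCC3, 76.7% overlap exons of KLC1 on the other strand, and KLC1 itself had 83.2 CPM in miR-885-5p cells and 106 CPM in Control cells. Strand is not stated, so reads of the 2 genes cannot be told apart, and 10 of the 37 genes share over 5% of their exon bases in this way. RAD51D had 28.6, 30.3 and 29.6 CPM in the miR-885-5p libraries, against 31.9, 31.8 and 34.6 CPM in the Control libraries. The groups were close but did not overlap, and RAD51D passed narrowly (log2 fold change -0.15, SE 0.06, adjusted p = 0.0485, edgeR), the nearest to the threshold of the genes that fell. That call was lost in 12 of 14 alternative analyses, where the adjusted p reached 0.172. Of the 2 that kept it, the fit with no filter repeats the main fit.

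RAD54L and RAD54B are translocases that act during strand invasion, and RAD51AP1 stimulates that step. RAD54L had 20.2, 18.9 and 19.3 CPM in the miR-885-5p libraries, against 35.4, 33.2 and 38.5 CPM in the Control libraries. RAD54B had 9.02, 8.17 and 9.67 CPM in the miR-885-5p libraries, against 13.2, 14.7 and 15.4 CPM in the Control libraries. RAD51AP1 had 19.03, 20.3 and 18.7 CPM in the miR-885-5p libraries, against 30.3, 27.4 and 30.4 CPM in the Control libraries. The groups were apart in each of these 3 genes. The log2 fold change was -0.88 (SE 0.07, adjusted p = 5.08e-06, edgeR) for RAD54L, -0.69 (SE 0.09, adjusted p = 0.000199) for RAD54B and -0.60 (SE 0.07, adjusted p = 5.14e-05) for RAD51AP1. RAD54L shares 25.1% of its exon bases with LRRC41 on the other strand, which moved the other way (log2 fold change 0.29).

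Of the 9 genes of the Fanconi core complex and its E2 enzyme, 5 fell, FANCF rose and 3 did not pass, with a median log2 fold change of -0.34. FANCL carries the ligase activity, and FANCB is its partner in the catalytic part of the complex. FANCB had 3.54, 3.92 and 3.56 CPM in the miR-885-5p libraries, against 5.30, 5.45 and 5.83 CPM in the Control libraries. It was the gene with the lowest CPM of the 37, and its groups did not overlap (log2 fold change -0.59, SE 0.13, adjusted p = 0.00406, edgeR). FANCL fell by 0.39 and UBE2T, the E2 enzyme, by 0.34 on the log2 scale. FANCL had 20.04 ± 0.540 CPM in miR-885-5p cells and 26.3 ± 3.12 CPM in Control cells, and UBE2T had 41.1 ± 1.56 CPM in miR-885-5p cells and 52.0 ± 3.05 CPM in Control cells (SD, n = 3 each).

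The other core proteins are adaptors that hold the complex together or bring it to DNA. FANCA fell by 0.46 and FANCC by 0.42 on the log2 scale, with 46.0 ± 2.15 CPM of FANCA and 7.65 ± 0.114 CPM of FANCC in miR-885-5p cells, against 63.4 ± 4.44 CPM of FANCA and 10.2 ± 0.640 CPM of FANCC in Control cells (SD, n = 3 each). FANCF had 22.3, 22.5 and 22.001 CPM in the miR-885-5p libraries, against 16.96, 18.1 and 20.5 CPM in the Control libraries. The miR-885-5p libraries were nearly level and above all Control libraries, which spread more widely. FANCF rose by 0.27 on the log2 scale (SE 0.08, adjusted p = 0.0159, edgeR), and the call was lost without Control library 1 (adjusted p = 0.0595) or without miR-885-5p library 2 (adjusted p = 0.0517). FANCA shares 23.6% of its exon bases with ZNF276 on the other strand, which had a log2 fold change of 0.28. FANCE, FANCM and FANCG, with log2 fold changes of -0.17, -0.12 and 0.01, did not pass.

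FANCD2 and FANCI, the clamp that the core complex marks with ubiquitin, both fell. FANCD2 had 38.6 ± 1.01 CPM in miR-885-5p cells and 51.3 ± 4.63 CPM in Control cells, a log2 fold change of -0.41. FANCI had 91.6 ± 1.89 CPM in miR-885-5p cells and 115 ± 4.91 CPM in Control cells (SD, n = 3 each), a log2 fold change of -0.33. FAN1 and SLX4, a nuclease and a nuclease scaffold that act at crosslinks, did not pass. FAN1 had 20.2, 26.3 and 24.5 CPM in the miR-885-5p libraries, against 30.1, 24.98 and 30.3 CPM in the Control libraries. The groups overlapped, because miR-885-5p library 2 lay above Control library 2, and FAN1 was the nearest to the threshold of the genes that did not pass (log2 fold change -0.27, SE 0.11, adjusted p = 0.0587, edgeR). It passed with DESeq2 (adjusted p = 0.0226), without Control library 2 (0.0156) and without miR-885-5p library 2 (0.0364). SLX4 had a log2 fold change of -0.17.

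Of the 6 genes that take joined DNA molecules apart, 4 fell, with a median log2 fold change of -0.42. The BLM helicase works with RMI1, RMI2 and the topoisomerase TOP3A, and EME1 with MUS81, and GEN1 on its own, are nucleases that cut the junctions. BLM had 19.03, 17.1 and 19.9 CPM in the miR-885-5p libraries, against 25.4, 30.2 and 25.2 CPM in the Control libraries. EME1 had 24.1, 26.3 and 25.7 CPM in the miR-885-5p libraries, against 40.9, 42.7 and 35.7 CPM in the Control libraries. Neither gene had overlapping groups, and the log2 fold change was -0.53 (SE 0.09, adjusted p = 0.000745, edgeR) for BLM and -0.65 (SE 0.07, adjusted p = 6.36e-05) for EME1. EME1 shares 16.4% of its exon bases with LRRC59 on the other strand, which had a log2 fold change of -0.46. RMI1 fell by 0.45 on the log2 scale, with 14.6 ± 1.48 CPM in miR-885-5p cells and 19.9 ± 0.112 CPM in Control cells. GEN1, whose promoter and UTR site are shown above, fell by 0.40, with 24.5 ± 0.615 CPM in miR-885-5p cells and 32.2 ± 1.85 CPM in Control cells (SD, n = 3 each). RMI2 and MUS81 did not pass, with log2 fold changes of -0.08 and -0.01. MUS81 had 64.1 ± 2.53 CPM in miR-885-5p cells and 64.3 ± 3.497 CPM in Control cells, and shares 13.9% of its exon bases with CFL1 on the other strand, which had a log2 fold change of -0.40.

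Partners within a complex were also set against each other. The ratio of the counts of 2 genes in a library does not depend on how libraries are scaled, and 14 such pairs of partners were compared, chosen after the values had been seen. In 8 pairs the groups did not overlap, and in 6 they did. Among all single genes, 30.3% lay below Control in every library and 30.2% above, and no such share was computed for pairs. The count of EME1 over that of MUS81 was 0.389, 0.414 and 0.385 in the miR-885-5p libraries, against 0.62, 0.708 and 0.535 in the Control libraries. For XRCC2 over RAD51D it was 0.327, 0.294 and 0.323 in the miR-885-5p libraries, against 0.598, 0.596 and 0.510 in the Control libraries. In both pairs every miR-885-5p library had a lower ratio than every Control library. Counts are not scaled by gene length, so the ratios compare libraries and do not say which of the 2 genes was the more abundant. BRCA2 over PALB2 averaged 0.461 ± 0.0447 in miR-885-5p cells and 0.763 ± 0.0370 in Control cells (SD, n = 3 each). FANCD2 over FANCI averaged 0.422 ± 0.0199 in miR-885-5p cells and 0.447 ± 0.0333 in Control cells, and these groups overlapped. The exact two-sided permutation p was 0.10 for each of the 8 pairs, the smallest that 3 against 3 libraries allow, and 0.175 after Benjamini-Hochberg adjustment over the 14 pairs. Any pair without overlap gets this p, and the pairs were chosen on seen values, so it adds nothing to the counts above.

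Levels of different genes were compared per length, by the FPKM of the authors. UBE2T was highest in both groups, with 44.1 ± 2.44 FPKM in miR-885-5p cells and 53.8 ± 2.56 FPKM in Control cells (SD, n = 3 each), and MUS81 was next in both, with 26.7 ± 1.25 FPKM in miR-885-5p cells and 25.9 ± 1.75 FPKM in Control cells. BRCA1 ranked 10 of 37 in miR-885-5p cells, with 11.6 ± 0.584 FPKM, and 4 of 37 in Control cells, with 22.9 ± 3.41 FPKM. FANCG, a core adaptor that did not pass, ranked 3 in miR-885-5p cells and 8 in Control cells. BRCA2 was among the lowest in both groups, with 0.944 ± 0.0786 FPKM in miR-885-5p cells and 1.64 ± 0.0781 FPKM in Control cells. Fold change showed almost no relation to level. Over the 37 genes, Pearson's r of the log2 fold change with log2 Control FPKM was -0.10 and Spearman's rho was -0.074, a description across genes of the same 6 libraries.

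**Figure D3:**
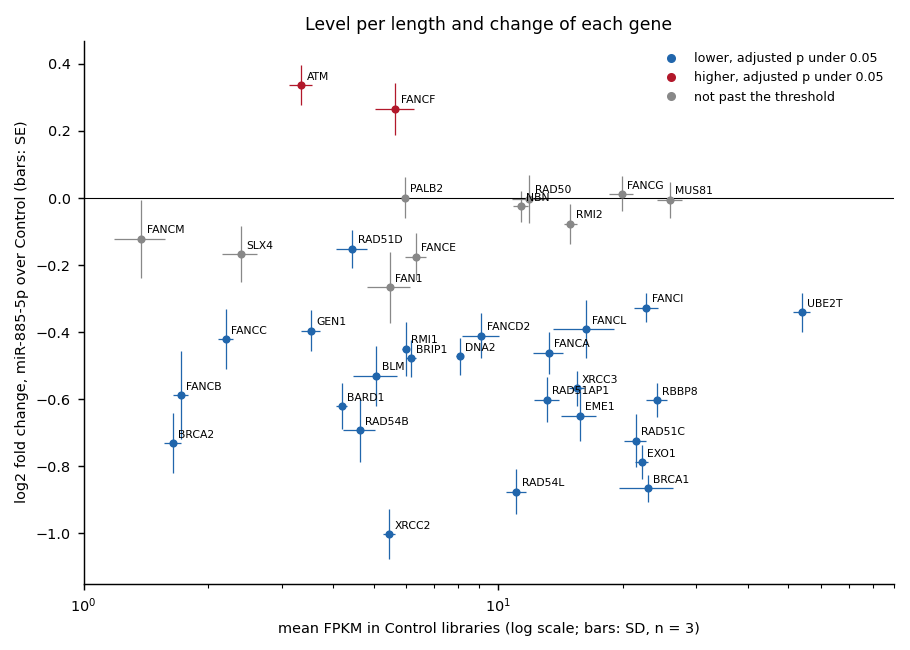
Log2 fold change (miR-885-5p over Control, bars for SE) of each of the 37 genes against its mean FPKM in the 3 Control libraries (log axis, bars for SD); blue is lower and red higher at an adjusted p under 0.05, grey did not pass. Genes that fell lie across the range, from BRCA2 at 1.64 FPKM to UBE2T at 53.8 FPKM.

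The genes next to each member on its chromosome were compared as well, using the 50 genes of the table nearest in order of start. Only the 12420 genes with an Ensembl ID matched to GENCODE could be neighbours. The neighbours' median log2 fold change was below 0 for 18 of the 37 genes and ran from -0.20, around RAD54L, to 0.23, around UBE2T. Of the 37 genes, 33 lay below the median of their neighbours. The same number, though not all the same genes, had a log2 fold change below 0, as did 7026 of all 14034 genes. The count thus largely restates the fall, and no share over all genes was computed. Of the 25 that fell, 13 had neighbours with a median above 0. XRCC2, at -1.002, had neighbours with a median of 0.05, and EXO1, at -0.79, of 0.07. Chromosome 1 was split at the widest gap between the starts of neighbouring tested genes. On the side with RAD54L, 693 other genes had a median of -0.23. On the side with EXO1 and UBE2T, 574 other genes had a median of 0.16. Why the sides differed was not tested. RAD54L, EXO1 and UBE2T, the members on chromosome 1, all fell. Without them, 22 of the 34 remaining genes fell and 2 rose in the same fit, which follows from the counts above.

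**Figure D4:**
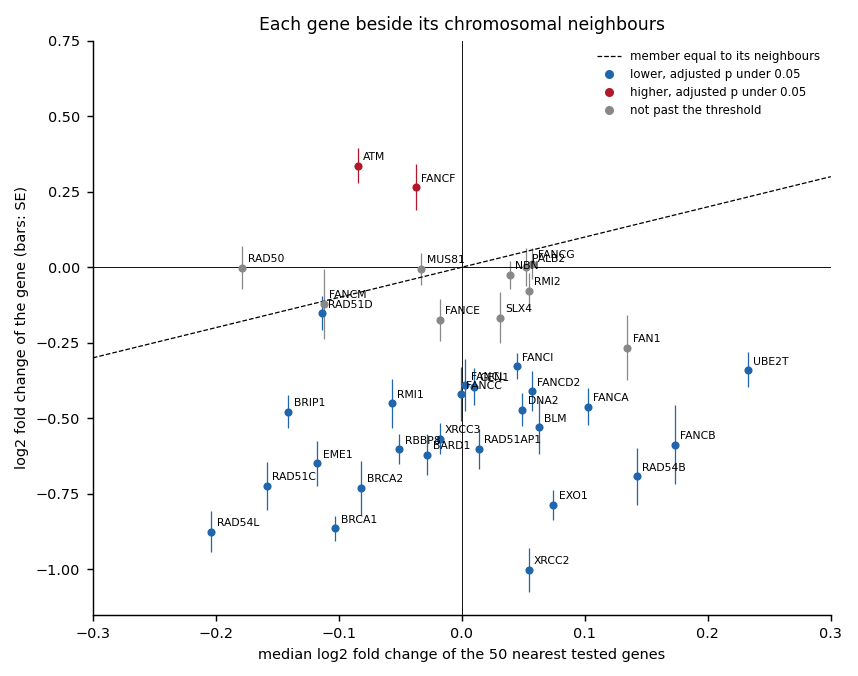
Log2 fold change (miR-885-5p over Control, bars for SE) of each of the 37 genes. The horizontal axis is the median of the gene's 50 nearest tested genes, in order of start on the chromosome. The dashed line marks equal values. Blue is lower and red higher at an adjusted p under 0.05, and grey did not pass. Of the 37 points, 33 lie below the dashed line, and 33 lie below 0.

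Other DNA repair genes moved in both directions. Of 51 other recombination and Fanconi genes, 21 fell (41.2%, beside 26.5% of all genes) and 8 rose (15.7%, beside 26.3%), with a median log2 fold change of -0.06. More of them fell than rose, as among the 37 genes. The 4 with the smallest adjusted p all fell: USP1, which removes the ubiquitin from FANCD2, by 0.66, CHEK1, a checkpoint kinase, by 0.66, TONSL, which binds new chromatin at forks, by 0.56, and RPA2, a subunit of the single-strand binding protein, by 0.65 on the log2 scale. WDR48, the activator of USP1, rose, with 52.0 ± 1.52 CPM in miR-885-5p cells and 37.5 ± 1.57 CPM in Control cells (SD, n = 3 each), as did ABRAXAS1, WRN and RECQL, with log2 fold changes of 0.50, 0.37 and 0.28. Direct partners of the genes above are named after their values had been seen. TOP3A fell by 0.33 and MRE11 by 0.18 on the log2 scale, EME2 rose by 0.15, and RAD51B, the paralog at 0.33, did not pass (adjusted p = 0.0878, edgeR).

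Counts in the remaining repair lists were 5 lower and 2 higher of 18 genes of end joining, 4 and 1 of 7 of mismatch repair, 5 and 3 of 19 of nucleotide excision repair, and 6 and 5 of 21 of base excision repair. The shares that fell in end joining (27.8%), nucleotide excision repair (26.3%) and base excision repair (28.6%) were close to the 26.5% of all genes, and that in mismatch repair was 57.1% of 7 genes. The shares that rose were 11.1%, 14.3%, 15.8% and 23.8% in the order of the counts, beside 26.3% of all genes. The median log2 fold changes of the 4 lists were -0.04, -0.17, 0.03 and -0.11, in the same order. In end joining, POLM and POLL, polymerases that fill the ends, rose by 0.77 and 0.59, while RIF1, which shields ends from trimming, fell by 0.45 and XRCC6, a subunit of Ku, by 0.31 on the log2 scale. In mismatch repair, MSH6, which takes part in binding the mismatch, fell by 0.43 and PMS1 by 0.24, and PMS2 rose by 0.19. In nucleotide excision repair, UVSSA, CETN2 and XPC rose by 0.71, 0.45 and 0.25, while DDB2, a sensor of ultraviolet damage, fell by 0.56 and RAD23B by 0.23. In base excision repair, PARP1 and PARP2, sensors of strand breaks, fell by 0.49 and 0.63, and the glycosylases UNG and NEIL3 fell by 0.55 and 0.71, while APEX1, MPG and NEIL1 rose by 0.22, 0.29 and 0.67. The difference between these lists and the 37 genes was described by counts and medians and was not tested.

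**Figure D5:**
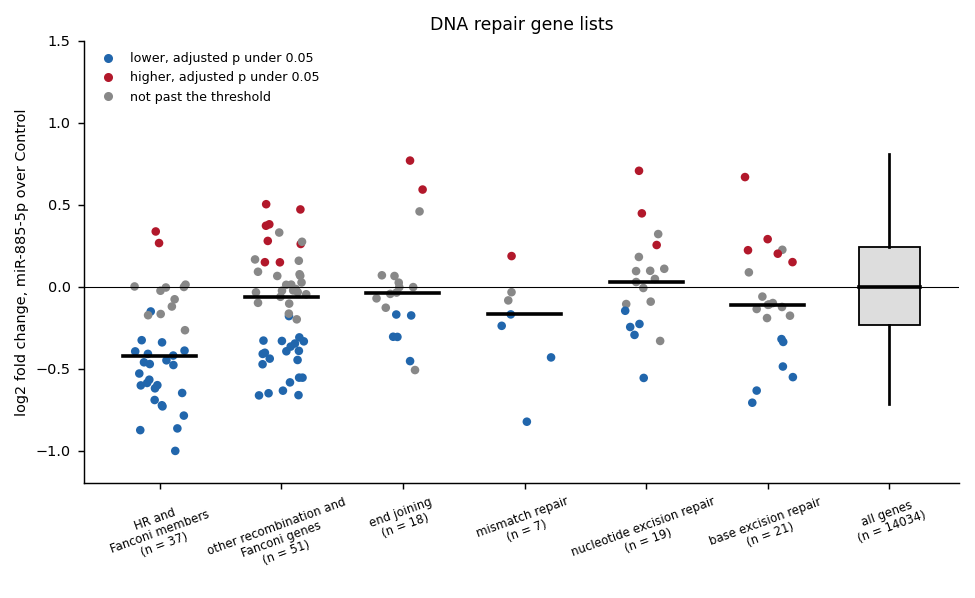
Log2 fold change (miR-885-5p over Control) of each gene in 6 lists of DNA repair genes, with a bar at the list's median; blue is lower and red higher at an adjusted p under 0.05, grey did not pass, and the box on the right spans the quartiles of all 14034 genes. The median of the 37 recombination and Fanconi genes is -0.42 and those of the other 5 lists run from -0.17 to 0.03.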

How the data were processed

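Groups and replicate numbers came from the sample titles. Total RNA was column-purified and sequenced from NEBNext Ultra libraries, per the labels' protocols. Named in the submitters' processing notes, with no role, are the build GRCh38, DESeq2 1.38.3, HISAT2 2.0.4 and StringTie 2.2.1. Which tool counted, with which annotation and strand setting, is not given in the sources used. Per the file headers, the authors deposited a count and an FPKM value per gene and library, and a p-value and log2 fold change per gene, with the test not named. All 12420 Ensembl IDs matched GENCODE 29, and 1614 rows had no gene name.

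The test was the two-sided quasi-likelihood F test of edgeR 4.0.16 (R 4.3.3) with TMM scaling, at an adjusted p under 0.05. The filterByExpr filter removed 0 genes. The SE is the log2 coefficient over the root of F. The authors' deposited p, with no adjustment named, was under 0.05 for 26 lower and 2 higher of the 37 genes. The 25 and 2 found here rest on an adjusted p, so the counts have unlike thresholds. No share of all genes was computed for the deposited p. The deposited log2 fold changes of the 37 genes differed from those here by at most 0.000724. The fits were checked on simulated counts. Alternatives were DESeq2 1.42.0, limma-voom (limma 3.58.1), 3 scalings, 2 filters, a replicate block, a 1.5-fold test and leaving out each library. Other promoter windows and site definitions were also used. Leaving out chromosome 1 only dropped its genes from the counts of the main fit. Of the 2 filters, no filter at all repeats the main fit, because filterByExpr removed 0 genes. No batch is labelled.

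Members and lists were chosen with earlier results of these data known. Named genes are all 37, with values per library for those past the threshold by at least 0.5 on the log2 scale, those that rose, and the nearest on each side of the threshold. In each comparison list the 4 with the smallest adjusted p and up to 4 past the threshold in the rarer direction are named, apart from a few that are not reported here.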

Additional observations from a re-analysis of the deposited data

How the results depend on the processing

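Of the 37 genes, 27 kept their call and direction in all 14 alternatives other than the 1.5-fold test. Among the 14, the fit with no filter repeats the main fit, because the main filter removed 0 genes. The count that fell ran from 24 to 26 and the count that rose from 1 to 2 with each library left out, and the median log2 fold change from -0.45 to -0.41. Scaling by total counts alone gave a median of -0.37, and moved that of all genes to 0.05. Against a 1.5-fold change, 4 of the 37 genes were lower (BRCA1, EXO1, XRCC2 and RAD54L) and 0 higher, beside 410 lower and 493 higher of all genes. At that threshold the other lists had, lower and higher, 0 and 0 in other recombination genes, 0 and 1 in end joining, 1 and 0 in mismatch repair, 0 and 0 in nucleotide excision repair, and 0 and 0 in base excision repair. Nucleotide excision repair had 3 lower and 5 higher by total counts alone. With each library left out, the count of other recombination genes that rose ran from 4 to 7, of mismatch repair genes that fell from 2 to 4, of nucleotide excision repair genes that fell from 3 to 6 and rose from 2 to 5, and of base excision repair genes that fell from 5 to 10. SLX4 passed without Control library 3 (adjusted p = 0.011, edgeR) and FANCE without Control library 2 (adjusted p = 0.0417, edgeR). Seed sites were in 6 genes with shorter matches counted, against 1. The cause of these changes was not tested.

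Signs turned only in genes near 0 that did not pass. RAD50 was at 0.00087 by limma-voom, 0.011 by upper-quartile scaling, 0.046 by total counts and 0.0093 with a 5 CPM filter. MUS81 was at 0.0078 by upper-quartile scaling, 0.042 by total counts and 0.0062 with that filter. PALB2 was at -0.00035 by limma-voom and NBN at 0.023 by total counts. With each library left out, values ran from -0.080 to 0.066 for RAD50, from -0.036 to 0.032 for PALB2, from -0.050 to 0.022 for MUS81, from -0.045 to 0.0011 for NBN and from -0.021 to 0.056 for FANCG.

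Libraries with the same number did not deviate together (r of their deviations from the group means -0.184, -0.0575 and -0.15), so the numbers were not taken as pairs. With the replicate number as a block, 24 of the 37 genes fell and 2 rose, RAD51D lost its call, RAD50 was at 0.0021, 5 other recombination genes rose and 3 nucleotide excision repair genes fell.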

Other observations

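In 10 of the 37 genes a protein-coding gene of the table starts within 1000 bases on the opposite strand. In 6 of these pairs the recombination or Fanconi gene fell. In 1 of the 6 the partner fell too: RMI1, at -0.45, starts 194 bases from HNRNPK, at -0.19. In 1 other of the 6 the partner rose. Of all 10 partners, 3 fell, 2 rose and 5 did not pass, beside 26.5% lower and 26.3% higher of all genes. MUS81, at -0.01, starts 990 bases from CFL1, which fell by 0.40. EME1, at -0.65 on the log2 scale, starts 6 bases from MRPL27, which had 42.4 ± 0.1925 CPM in miR-885-5p cells and 46.1 ± 5.405 CPM in Control cells (SD, n = 3 each) and did not pass. XRCC3, at -0.57, starts 304 bases from ZFYVE21, which rose by 0.25, and ATM, at 0.34, starts 190 bases from NPAT, which fell by 0.17. PALB2, at 0.00, starts 82 bases from DCTN5, which rose by 0.31.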
